A study of Arabidopsis thaliana with 3 samples.

Results

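The mitochondrial genome of Arabidopsis thaliana was followed on 3 Affymetrix ATH1 arrays through the probe sets that read its respiratory, cytochrome c maturation and open reading frame genes. Each probe set is made of several short oligonucleotides, and MAS5 turns their brightness into 1 signal. Members were the probe sets to which the platform annotation gives exactly 1 gene, with a symbol that starts with nad, cox, cob, ccb, orf, matR, mttB, atp1, atp6, atp8 or atp9 and with no plastid locus. The rule gave 23 of 22746 probe sets, which read 16 genes, and it used no signal. Through their symbols or synonyms all 16 genes matched genes of the mitochondrial chromosome in the RefSeq table, which holds 33 protein-coding genes with 32 different symbols there.

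The arrays carried total RNA of accession Col-0, 2 of germinating pollen with pollen tubes and 1 of whole seedlings with roots. Pollen from opened flowers had been left for 6 h at 25°C in the dark on agarose with 13.5% sucrose, where the labels put its germination rate near 80%. Seedlings with their first rosette leaves came from a Murashige-Skoog medium with sucrose. Labelling used 10 µg of total RNA for each array. Neither tissue carried a mutation or transgene according to the labels, and the labels do not say whether separate plants supplied the pollen arrays. A p-value here therefore rests on the spread between those arrays, which may be technical and which limma shares in part across all tested probe sets.

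Mitochondria of plants keep a genome of their own, from which core subunits of the respiratory chain, a part of the cytochrome c maturation machinery and some ribosomal proteins are made, while most subunits of the same complexes are encoded in the nucleus. Complex I (NADH dehydrogenase, the nad genes) passes electrons from NADH into the chain and complex IV (cytochrome c oxidase, the cox genes) passes them to oxygen. Several nad messages of plants, nad1 among them, are joined by trans-splicing from separately transcribed pieces. Pollen is known for its many mitochondria and its high respiration. In plant organelles poly(A) tails mark a transcript for degradation, whereas nuclear messages carry stable tails. The labels name one-cycle complementary DNA synthesis and not its primer, and how the primer bore on the signals below was not tested.

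Of the 23 mitochondrial genome probe sets, 18 gave signals within the range of control probe sets on each of the pollen arrays, against 11 on the seedling array. The array carries 27 probe sets for Bacillus subtilis transcripts, which have no target in plant RNA. A signal is called within the range of these controls here if it is not above the highest of them on its array. It may also lie under the lowest. Their highest signals were 47.1 on pollen array 1 and 65.7 on pollen array 2, against 14.3 on the seedling array, and their medians were 14.4 and 9.11, against 3.39. Of the 23 members, 5 on pollen array 1 and 5 on pollen array 2 were above the highest of these controls, against 12 on the seedling array. The shares of all 22746 probe sets above it were 44.7% and 36.0% on the pollen arrays, against 72.7% on the seedling array. Members above it on all 3 arrays were cox1, ccb452 and orfX, and 9 probe sets were within the range of the controls on every array.

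Against a floor of 42.3, the pooled median signal, 5 and 10 members were above it on the pollen arrays, against 5 on the seedling array. The shares of all probe sets were 47.8% and 50.2%, against 52.1%. Under the floor on all 3 arrays were 12 members, and above it on all 3 were again cox1, ccb452 and orfX. The members' summed signal was 636 and 957 on the pollen arrays, or 0.00833% and 0.0127% of each array's total, against 611 and 0.0152% on the seedling array. Ranked among all probe sets of its own array, a measure that does not depend on how arrays were scaled, the median member stood at percentile 34.9 and 48.7 on the pollen arrays, against 27.7 on the seedling array. Without the 7 nad1 probe sets these medians were 40.8 and 47.6, against 28.2.

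**Figure D1:**
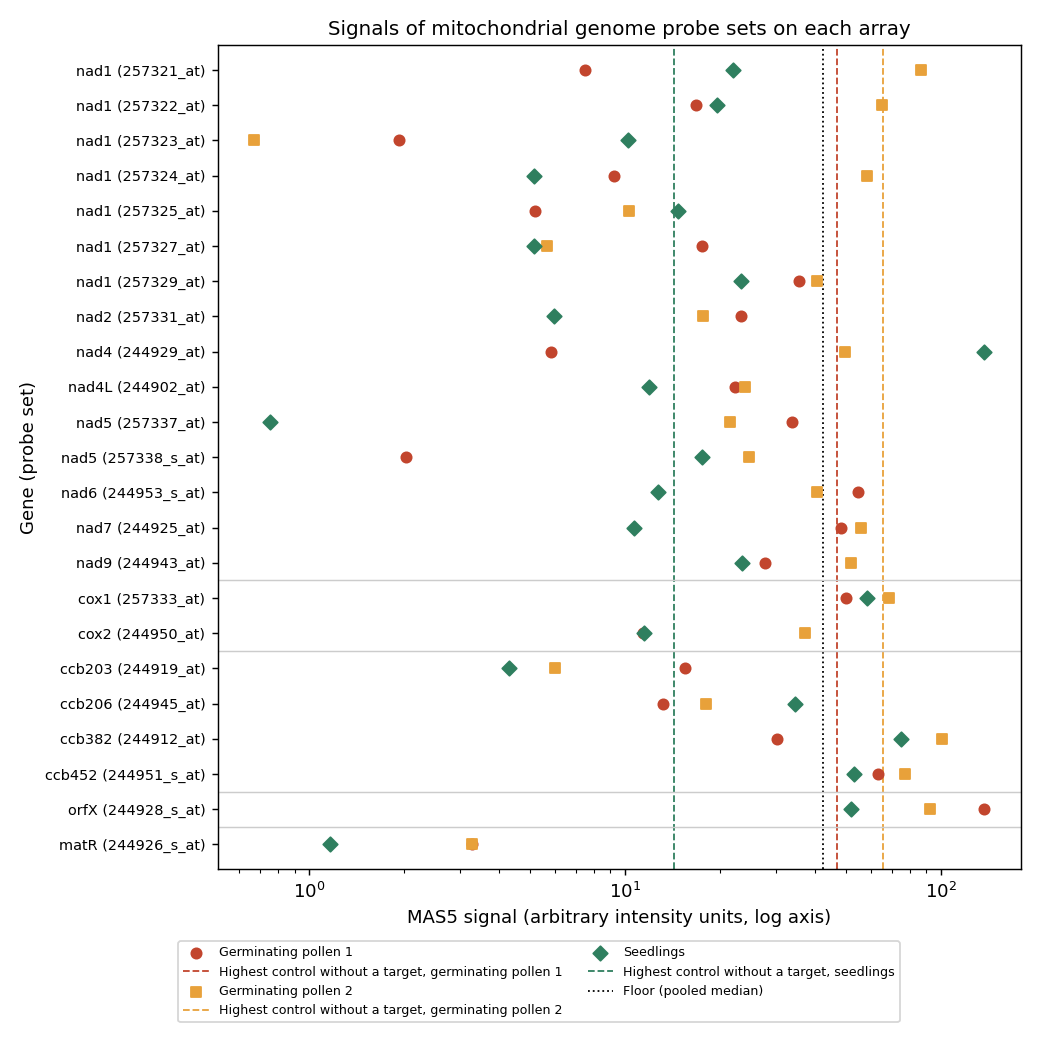
MAS5 signal (log axis) of each of the 23 mitochondrial genome probe sets on the germinating pollen arrays 1 (circles) and 2 (squares) and the seedling array (diamonds). Dashed lines mark the highest control without a target on each array (47.1 and 65.7 in pollen, 14.3 in seedlings), the dotted line marks the floor of 42.3, and grey lines part the gene groups. Only cox1, ccb452 and orfX lie right of their own array's dashed line on all 3 arrays.

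By the test, 1 member differed between germinating pollen and seedlings. The test took in probe sets that exceeded the floor either on the seedling array or on both pollen arrays, and 6 members passed that filter: nad4, nad7, cox1, ccb382, ccb452 and orfX. The filter lets a probe set in through the tissue where it is bright, so these 6 do not stand for all members. In limma's test over all 3 arrays with Benjamini-Hochberg adjustment at a threshold of 0.05, that member, nad7, was higher in germinating pollen and 0 were lower, and 5 did not pass. Of the 14815 probe sets tested in all, 22.1% were called higher and 31.7% lower, 53.8% in either direction. Without the filter 0 of the 23 members were called, whereas 11.5% of all probe sets were called higher and 13.9% lower, 25.4% in either direction. At an unadjusted p under 0.05 the filtered test had 1 member, nad7, and 61.3% of all tested probe sets. The unfiltered test had 2 at that level, a probe set of nad1 and one of nad5, and 39.6% of all probe sets. By size alone, 0 members were at least 10-fold higher on both pollen arrays and 0 at least 10-fold lower, where 4.24% and 4.95% of all probe sets were. With arrays scaled by the hybridisation spikes, 7 of 13 tested members were lower in pollen and 0 higher, where 67.3% of 17776 tested probe sets were called lower and 8.38% higher, 75.7% in either direction. That scaling moved the median log2 difference of all probe sets to -1.58, against 0.07. These are bulk samples, in which fewer cells of a type and less RNA per cell cannot be told apart.

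The signal of the seedling array was below both pollen arrays for 13 of 23 members, above both for 4 and between them for 6. Over all probe sets the seedling signal was below both pollen arrays in 44.4% and above both in 42.2%. The median log2 difference of the members, germinating pollen minus seedlings with an offset of 14.7 added to each signal, was 0.40, with a range of -2.06 to 1.44, and that of all 22746 probe sets was 0.07. The controls without a target moved the same way as most members, with medians 4.26 and 2.69 times that of the seedling array on pollen arrays 1 and 2, and the part of this background in the members' differences was not tested. Measured against its own array's control median, the median member was 1.22 and 4.45 times brighter on the pollen arrays, against 4.34 times on the seedling array.

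In complex I, 8 genes were read by 15 probe sets, and nad7 was the 1 member of all groups that passed the test. It encodes a peripheral subunit of the NADH dehydrogenase. Its signals were 48.5 and 56.0 in germinating pollen, against 10.7 in seedlings, so the groups did not overlap, and the log2 difference was 1.39 ± 0.41 (SE; limma adjusted p = 0.0494). The seedling signal was within the range of its array's controls, and of the pollen signals the first was just above its array's highest control of 47.1 and the second under that of 65.7. No fold is given for that reason. A seedling signal below both pollen signals was also found for 44.4% of all probe sets. The gene nad7 entered the test only through its pollen signals, the tissue in which it was then called higher. Without the filter it was not called. The call held in 3 of the 9 alternative settings. In 3 others nad7 was tested without passing, with limma adjusted p between 0.0575 and 0.189, and in the remaining settings it did not enter the test. Among the latter, its log2 difference fell to -0.004 under scaling by hybridisation spikes and to 0.37 under scaling by the controls without a target. It stayed at 1.39 with the floor at the highest control without a target.

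The other tested gene of complex I was nad4, a membrane subunit of its proton-pumping arm. Its signals were 5.83 and 49.7 in germinating pollen, against 137 in seedlings. Both pollen signals were within the range of the controls, the seedling signal was 40.5 times its array's control median, and the pollen arrays lay 8.52-fold apart. The log2 difference of -2.06 ± 0.85 (SE) did not pass (limma adjusted p = 0.110), although it passed under scaling by hybridisation spikes (log2 difference -3.95, adjusted p = 0.0129) and under scaling by the controls without a target (-3.41, adjusted p = 0.000116). Those scalings moved the median log2 difference of all probe sets to -1.58 and -1.14. With 1 residual degree of freedom these p-values lean on the spread shared across probe sets, and not on the spread of nad4 alone. This holds most under scaling by the controls without a target. The low value there is not strong evidence of a difference, since the pollen arrays of nad4 lay widely apart. Over all 9 alternatives its limma adjusted p ranged from 0.000116 to 0.201.

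Among the untested genes of complex I, nad6, a membrane subunit, had 54.6 and 40.6 in germinating pollen, against 12.7 in seedlings. It missed the filter through the second pollen array, and under 75th percentile scaling it entered the test and was called higher (adjusted p = 0.0434), whereas under spike scaling it was tested without passing (adjusted p = 0.539). The membrane subunit nad4L had 22.3 and 24.1, against 11.95, and nad2, also of the membrane arm, had 23.3 and 17.7, against 5.97. These 3 genes had both pollen arrays above the seedling array, but nad4L and nad2 were within the range of the controls on all 3. The peripheral subunit nad9 had 27.8 and 52.0 in germinating pollen, against 23.6 in seedlings, where it was above that array's highest control while both pollen signals were not.

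The probe sets of nad5, a membrane subunit, disagreed with each other. One (257337_at) had 33.7 and 21.5 in germinating pollen, against 0.75 in seedlings. The other (257338_s_at) had 2.03 and 24.8, against 17.5, so that the seedling signal lay between pollen arrays that were 12.2-fold apart. Neither reached the floor on any array, and neither was tested.

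The 7 probe sets of nad1, the membrane subunit next to the quinone site, disagreed as well. The annotation gives them to nad1 alone and does not say which piece of the gene each of them reads. Whether some read an open reading frame within the span of this trans-spliced gene was not tested. In germinating pollen they ranged from 1.93 to 35.6 on array 1 and from 0.672 to 86.8 on array 2, against 5.14 to 23.4 in seedlings. One of them (257321_at) had 7.49 and 86.8 in pollen, against 21.9 in seedlings. It was the only nad1 probe set above the highest control on a pollen array. A second (257323_at) had 1.93 and 0.672, against 10.2. The seedling signal was below both pollen arrays for 3, above both for 2 and between them for 2. Of all probe sets, 44.4% were below both and 42.2% above both. More than 2-fold apart between the pollen arrays were 5 of the 7, and 37.1% of all probe sets. None of the 7 was tested, and 3 were within the range of the controls on all 3 arrays. The maturase gene matR, which lies within an intron of nad1 and whose product acts in splicing, had 3.27 and 3.29 in germinating pollen, against 1.17 in seedlings, all within the range of the controls.

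In complex IV, cox1, the catalytic subunit of cytochrome c oxidase, had 50.1 and 68.4 in germinating pollen, against 58.5 in seedlings. The seedling signal lay between the pollen signals, and the log2 difference was 0.00 ± 0.52 (SE; limma adjusted p = 0.995). Under spike scaling cox1 was called lower (log2 difference -1.93, adjusted p = 0.0235), and over the 8 alternatives that tested it the adjusted p ranged from 0.0235 to 0.998. The copper-binding subunit cox2 had 11.4 and 37.1, against 11.5, within the range of the controls on each array, and was not tested. No probe set of the rule read cob of complex III or a subunit of complex V alone, so these complexes are not analysed here. Over the 17 respiratory probe sets the median log2 difference was 0.48, 3 were tested, and 1 was higher and 0 lower. Of all tested probe sets 22.1% were higher and 31.7% lower.

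The 4 cytochrome c maturation genes, whose products act in attaching heme to c-type cytochromes, showed 0 calls among 2 tested. Of all tested probe sets 53.8% were called in either direction, and so few tested members allow no contrast between the groups. The median log2 difference of the 4 genes was 0.00. The gene ccb452, listed in RefSeq as ccmFC, had 63.3 and 77.1 in germinating pollen, against 53.0 in seedlings. That seedling signal was below both pollen signals, as for 44.4% of all probe sets. Its log2 difference of 0.32 ± 0.50 (SE) did not pass (limma adjusted p = 0.604). The gene ccb382, or ccmFN1, had 30.2 and 100.7 in pollen, against 75.02 between them in seedlings (log2 difference -0.32 ± 0.76, SE; limma adjusted p = 0.738). The gene ccb206, or ccmB, had 13.2 and 18.0, against 34.5, and was not tested, with the seedling signal above its array's highest control and both pollen signals within the range of theirs. The gene ccb203, or ccmFN2, had 15.5 and 6.00, against 4.29, all within the range of the controls.

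The open reading frame group held 1 probe set, orfX, listed in RefSeq as mttB or tatC, a membrane protein related to bacterial twin-arginine translocation. It had 137 and 92.5 in germinating pollen, against 52.1 in seedlings, all above the floor and above the controls. The seedling signal was below both pollen signals, as for 44.4% of all probe sets. Its log2 difference of 0.93 ± 0.46 (SE) did not pass (limma adjusted p = 0.156), and the pollen arrays were 1.48-fold apart. Its percentile within the array was 83.2 and 74.9 in pollen, against 52.3 in seedlings. Measured against the control median of the same array, orfX was 9.48 and 10.2 times brighter in pollen, against 15.4 times in seedlings, so that its direction turned with the yardstick. With 1 probe set this group allows no statement on open reading frames as a class.

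**Figure D2:**
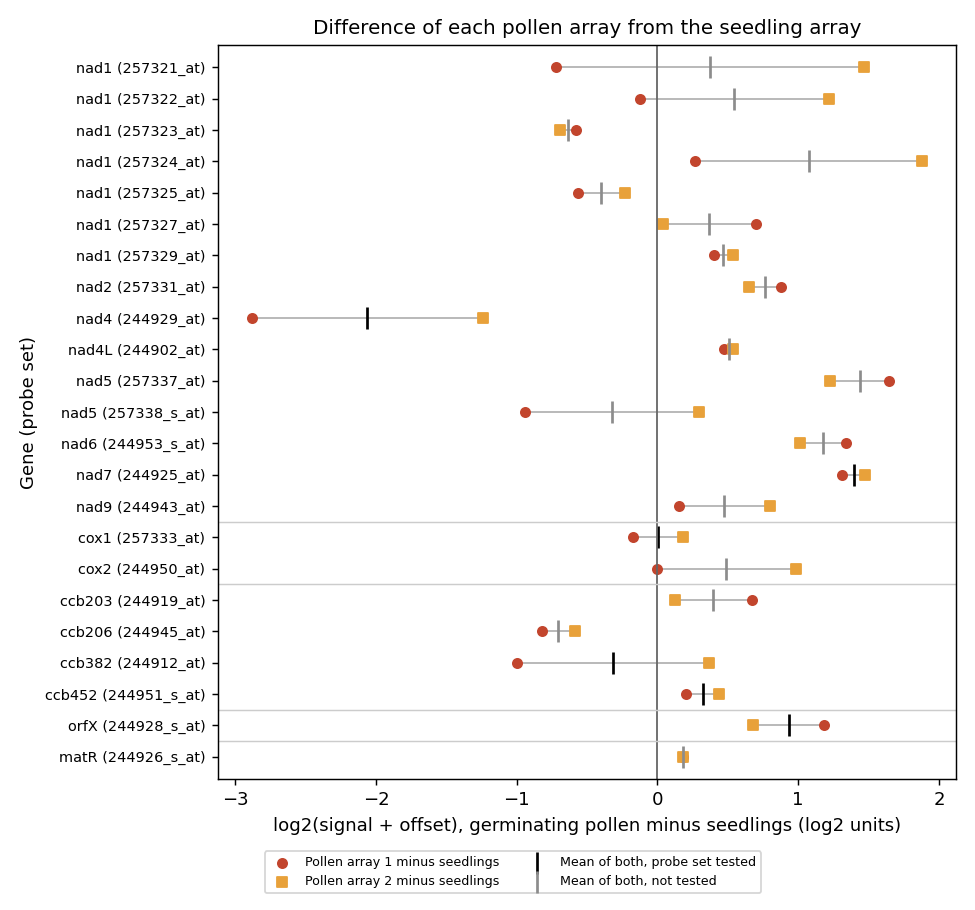
Log2 difference of each pollen array from the seedling array for the 23 probe sets, with circles for pollen array 1, squares for array 2 and bars for the mean of both (black where the probe set was tested). Differences of single arrays run from -2.88 (nad4, array 1) to 1.88 (a nad1 probe set, array 2) and their means from -2.06 (nad4) to 1.44 (the nad5 probe set 257337_at), and the pollen arrays lie widely apart for nad4, ccb382 and 3 of the nad1 probe sets.

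Over the members the pollen arrays were 1.87-fold apart at the median and up to 12.2-fold, where the median of all probe sets was 1.57-fold and the highest 77.1-fold. More than 2-fold apart were 10 of 23 members (43.5%), close to the 37.1% of all probe sets. On the log2 scale the pollen arrays correlated at r = 0.547 over the 23 members (Spearman 0.518) and at r = 0.906 over all probe sets (Spearman 0.769). Over the 69 probe sets of the plastid genome, described below, r was 0.521 (Spearman 0.472). Pollen arrays 1 and 2 correlated with the seedling array at r = 0.280 and r = 0.625 over the members, and each at r = 0.176 over all probe sets. These are descriptions across probe sets, which share arrays and background and are not replicates.

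The 5 members of a design that can match more than 1 transcript (nad6, ccb452, orfX, matR and the nad5 probe set 257338_s_at) had a median log2 difference of 0.32, and the other 18 had 0.43. The 1 call, nad7, was of the second kind.

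Genes of the plastid genome, the other organelle genome on the array, were lower in germinating pollen. Its 69 probe sets with 1 gene had median signals of 18.6 and 25.8 in germinating pollen, against 1113 in seedlings, and 55 and 58 were within the range of the controls on the pollen arrays, against 1 on the seedling array. Of all probe sets, 44.7% and 36.0% were above the highest control on the pollen arrays, against 72.7% on the seedling array. Of 66 plastid probe sets tested, 59 were lower in pollen and 0 higher, where 31.7% and 22.1% of all tested probe sets were. The median log2 difference over all 69 was -5.05, against 0.40 for the mitochondrial members. On the pollen arrays the median plastid probe set stood at percentile 35.7 and 38.6, next to 34.9 and 48.7 for the mitochondrial ones. On the seedling array it stood at 97.0, next to 27.7. The difference between the organelle genomes was not tested, since genes of 1 genome are not replicates.

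Nuclear genes of mitochondrial function went both ways. Of a list of 88 symbols 16 had single-gene probe sets, 17 in all. Above the highest control on both pollen arrays were 9 of these 17, and 6956 of all 22746 probe sets. Of 13 tested, 4 were higher and 3 lower, where 22.1% and 31.7% of all tested probe sets were. The median log2 difference over all 17 was 0.54. CYTC-2, a cytochrome c, averaged 1026 ± 66.6 in germinating pollen (SD, n = 2) against 307 in seedlings and was 3.35-fold higher (limma adjusted p = 0.00147). CYTC-1, the other cytochrome c, had 9.67 and 14.8, against 1448, and was at least 34.2-fold lower against the floor (limma adjusted p = 0.00139). The succinate dehydrogenase subunits SDH1-1, SDH2-1 and SDH2-2 of complex II, none of them encoded by the members' genome, were 2.15-fold, 3.06-fold and 2.30-fold higher, and a second SDH2-1 probe set was not tested (12.4 and 85.5, against 2.17). Under spike scaling CYTC-2 and these 3 SDH genes turned to lower, with log2 differences from -1.17 to -0.54. All 4 calls were lost under scaling by controls without a target (log2 differences -0.64 to -0.02, adjusted p from 0.529 to 0.989), and that of SDH1-1 also without a variance trend (adjusted p = 0.0576). Scaling by these controls sets each array by its own control median, which was 14.4 and 9.11 on the pollen arrays. It thus shifts the pollen arrays against each other for all probe sets, and this bears on the p-values of that setting. MPPBETA of the mitochondrial processing peptidase was 5.65-fold lower. FRO1 (FROSTBITE1), a nuclear subunit of complex I, was also called lower, with 45.9 and 27.8 in pollen within the range of the controls, against 732 in seedlings.

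**Figure D3:**
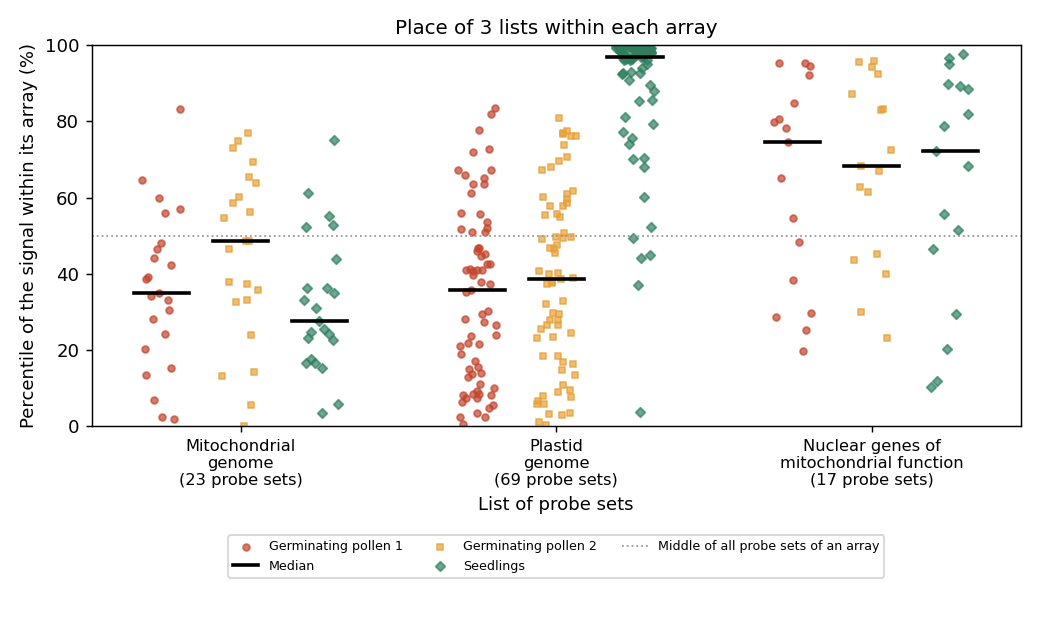
Percentile of each probe set's signal within its array for the mitochondrial genome (23 probe sets), the plastid genome (69) and the nuclear list (17), on germinating pollen arrays 1 and 2 and the seedling array. Points are probe sets and black bars medians. Mitochondrial medians were 34.9 and 48.7 in pollen against 27.7 in seedlings, and the plastid median was 97.0 in seedlings.

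Markers of germinating pollen and of seedling leaves went with the labels, while those of seedling roots did not. All 9 measured germinating pollen markers were higher in pollen, with signals from 790 to 22964 there, against 1.03 to 272 in seedlings. Of 8 seedling leaf markers 7 were lower in pollen and LHCB4.3 did not pass, and their summed signal was 209 and 242 in pollen, against 39599 in seedlings. Of 4 markers of petals, stigma and other flower organs 1 was lower and 0 higher, with sums of 310 and 290, against 195. The sperm marker MGH3 was higher, the tapetum marker AMS was not tested (8.87 and 49.0, against 1.16), and of 2 root markers EXPA7 was called higher in pollen (121 and 100.8, against 22.0 in seedlings; limma adjusted p = 0.0416, or 0.0633 without the filter) and EXPA18 did not pass (113 and 56.4, against 23.6). Relative to the seedling array, the hybridisation spikes were 4.998 and 4.79 times brighter on pollen arrays 1 and 2.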

How the data were processed

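The authors made the deposited intensities, linear values with 1 per probe set, with MAS5, per the submitters' processing notes; the version is not given in the sources used here. The 2% trimmed means were equal (122 on each array), so arrays had been scaled to a common level before deposit, and differences are relative to the rest of an array. There were no detection calls, and depth does not apply to arrays: their number limits the precision, with 1 residual degree of freedom. The label of the seedlings leaves out the LiCl precipitation named for pollen, a step that cannot be told apart from tissue.

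Signals were scaled again to equal 2% trimmed means. The 64 array controls were left out of tests. An offset of 14.7 (30th percentile) was added before log2, which understates differences of dim probe sets, and 42.3 (pooled median) was the floor. limma 3.58.1 in R 4.3.3 (lmFit, eBayes with trend, two-sided) was fitted on 14815 probe sets over all 3 arrays. This takes the spread of the seedling group, which has 1 array, from the pollen arrays. The procedure was tested on simulated data, in which only brighter probe sets were changed and the noise was equal for all. That simulation does not cover dim members or pollen arrays that lie widely apart. The gene-to-probe pairing was the platform annotation (1 gene for 13513 probe sets, several for 503, 8730 not listed). RefSeq TAIR10.1 served for names: 0 of the 23 members matched by gene number and all by symbol or synonym. Members and lists were chosen with earlier results of these data known. All members are named. Probe sets bind with different strength, so medians and percentiles of lists describe signals, not transcript levels set against each other. No sequences are shown.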

Additional observations from a re-analysis of the deposited data

How the results depend on the processing

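No paired analysis was possible because the seedling group has 1 array and its label carries no replicate number. Scaling by controls without a target was added after the data were seen; the other alternatives were planned. Of 115 recomputed counts and group medians, 93 stayed on the same side or within the allowed range. Many of these could hardly move: the counts at least 10-fold use neither the offset nor the test filter, and a count of 0 that stayed 0 was scored as the same. The number 93 therefore does not measure how stable the results are. Members higher numbered 1, against 2 under 75th percentile scaling and 0 under quantile normalisation, spike scaling, no offset, no filter, the floor at the highest control without a target and scaling by controls without a target, and the respiratory count moved likewise under the same planned settings. Members lower numbered 0, against 7 under spike scaling (4 respiratory, 3 cytochrome c maturation) and 3 under scaling by controls without a target. Under spike scaling 1 member was at least 10-fold lower, the group medians were -1.02 (respiratory), -1.94 (cytochrome c maturation) and -1.04 (orfX), and the median over all probe sets was -1.58. The median of orfX was 1.40 under 75th percentile scaling. Directions of tested but uncalled members turned for cox1 (-1.93 under spike scaling, -1.45 under scaling by controls), ccb452 (-1.61 and -1.13) and orfX (-1.04 and -0.57), and for ccb382 (0.14 under 75th percentile scaling). Of the 17 untested members, 11 turned to negative under spike scaling (-1.18 to -0.13) and 9 under scaling by controls (-0.75 to -0.04). The cause was not tested. Leaving out pollen array 1 or 2 left 1 array against 1, so values have no test: both counts at least 10-fold were 0, and medians lay between 0.15 and 0.65 (respiratory), -0.31 and 0.24 (cytochrome c maturation) and 0.68 and 1.18 (orfX).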

Other observations

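A further 6 probe sets carry a mitochondrial gene of the rule together with a locus of chromosome 2, and they were left unnamed because each has several genes. Their signals ranged from 3.86 to 99.8 and from 5.92 to 70.5 on the pollen arrays, against 1.27 to 53.4 on the seedling array. Of 5 tested, 1 was higher in germinating pollen (99.8 and 46.9, against 1.27) and 1 lower (3.86 and 5.92, against 51.2). Of all tested probe sets 22.1% were called higher and 31.7% lower. Without the filter on dim probe sets both calls were lost (limma adjusted p = 0.0942 and 0.0629).

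The 20 single-gene probe sets of chromosome 2 loci between the outermost of these partners, AT2G07671 and AT2G07727, were listed after the annotation was seen. Their median signals were 24.2 and 37.4 in germinating pollen, against 13.5 in seedlings. Of 4 tested, AT2G07695 was higher in pollen, with 139 and 143, against 29.8 in seedlings (limma adjusted p = 0.0249), and 0 were lower. The shares of all tested probe sets were again 22.1% higher and 31.7% lower. As background, the centromeric region of chromosome 2 in Col-0 holds a large insertion of mitochondrial DNA. Which copy the probe sets read was not tested.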
